A study of Mus musculus with 18 samples.

Results

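The 6 skeletal myosin heavy chain genes Myh4, Myh1, Myh2, Myh7, Myh8 and Myh3 were followed in RNA sequencing libraries of mouse prostate, to see which fibre types the muscle RNA in these libraries carried. The members were chosen by symbol, and all 6 of the 55469 genes listed in each table were found. The libraries came from the ventral and lateral lobes of male, littermate-matched mice on a C56NL/6N background, with 3 libraries in each of 6 groups: wild type (WT), KO and A537T mice, each at 10 and 30 weeks of age. KO mice were homozygous for a floxed Elac2 allele whose exon 8 is removed by Cre under the probasin (Pb) promoter, which is active in prostate epithelium, so skeletal muscle is not its target. A537T mice carried the Ala537Thr change in both copies of Elac2 in every tissue. Elac2 encodes the RNase that trims the 3′ ends of tRNA precursors, and the study compared each mutant line with WT mice of the same age. By the protocol, neighbouring organs (bladder, urethra, seminal vesicles) and the fat and connective tissue around the lobes were dissected away.

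A myosin heavy chain is the motor of the thick filament, and the isoform a skeletal fibre makes sets how fast it shortens and names its type. Myh7 marks slow, type I fibres, Myh2 the fast oxidative type 2A, Myh1 type 2X, and Myh4 type 2B, the fastest and most glycolytic. Myh3 (embryonic) and Myh8 (perinatal) are made in developing and regenerating fibres, and Myh8 also in a few adult muscles. Smooth muscle, such as that of the prostate stroma, uses another heavy chain, Myh11, and striated muscle lies close to the prostate around the urethra.

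Libraries held 6569642 to 11225281 reads, recovered from the deposited normalized counts. The 6 genes together took 0.699 to 2.53% of the reads in WT libraries at 10 weeks, while KO libraries had 0.000183 to 0.40% and A537T libraries 0.274 to 0.715%. The 9 libraries at 30 weeks had 0.00105 to 0.0150%. In bulk tissue fewer muscle fibres and less RNA per fibre cannot be told apart. Secretory genes of the seminal vesicle also varied between libraries: the 8 genes of that list took 6.55 to 10.3% of the reads in KO at 10 weeks and 0.000808 to 4.64% in WT. At 30 weeks they took 6.32 to 9.17% in 4 mutant libraries (4AF, 6AF, 7AF and 9AF) and at most 0.000335% in the others. Their part in the results below was not tested. At 10 weeks Elac2 itself averaged 144 ± 21.1 normalized counts in WT and 115 ± 4.09 in KO (SD, n = 3), a log2 fold change of -0.31 with an adjusted p of 0.325 (limma), and at 30 weeks 166 ± 24.7 and 124 ± 26.5, with a log2 fold change of -0.43 and an adjusted p of 0.478 (limma). In A537T Elac2 averaged 165 ± 7.55 at 10 weeks and 141 ± 41.5 at 30 weeks.

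On GRCm38, 5 of the 6 genes lie in a row on the plus strand of chromosome 11. In this order they are Myh3 (chr11:67078300-67102291), Myh2 (chr11:67171027-67197517), Myh1 (chr11:67200052-67224575), Myh4 (chr11:67238029-67260446) and Myh8 (chr11:67277124-67308634). Myh7 stands apart on the minus strand of chromosome 14 (chr14:54970684-54994626). The coding sequences are 5805 to 5826 bases long and much alike, which matters for how far reads can be given to one gene or another. Myh1 and Myh2 match at 91.0% of aligned bases, Myh1 and Myh4 at 90.1%, and Myh8 matches Myh2 and Myh1 at 89.1 and 89.2%. Myh7 matches the others at only 76.7 to 77.6%, and Myh3 matches Myh2, Myh1, Myh4 and Myh8 at 80.2 to 81.0%. Of all 100-base windows of the longest coding transcript, 3.85% of Myh4, 6.61% of Myh8, 9.17% of Myh2, 9.73% of Myh1, 11.2% of Myh7 and 1.15% of Myh3 also occur without a mismatch in a transcript of another gene. For Myh7 that other gene is Myh6, the cardiac heavy chain, and for Myh1 and Myh2 it is mostly each other. None of these windows occurs in a transcript from outside the sarcomeric heavy chain family, Myh11 and the non-muscle heavy chains included.

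The stretch of 60 bases that differs most between the 6 coding sequences is shown for how far each gene can be told apart there. It lies near the start of the coding sequence, inside 1 exon in every gene: chr11:67240728-67240787 in Myh4, chr11:67201986-67202045 in Myh1, chr11:67173220-67173279 in Myh2, chr11:67278967-67279026 in Myh8 and chr11:67080103-67080162 in Myh3, all on the plus strand, and chr14:54992713-54992772 on the minus strand in Myh7 (GRCm38). Each is read 5′ to 3′ on the strand of its gene, and capitals mark bases that differ from Myh4.
Myh4: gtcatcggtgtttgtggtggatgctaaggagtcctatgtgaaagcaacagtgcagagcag
Myh1: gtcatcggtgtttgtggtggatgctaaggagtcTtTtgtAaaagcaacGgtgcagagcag
Myh2: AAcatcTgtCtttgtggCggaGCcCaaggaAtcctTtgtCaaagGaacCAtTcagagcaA
Myh8: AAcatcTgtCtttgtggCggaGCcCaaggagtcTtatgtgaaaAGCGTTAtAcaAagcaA
Myh3: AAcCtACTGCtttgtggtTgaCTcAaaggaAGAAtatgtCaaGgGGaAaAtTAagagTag
Myh7: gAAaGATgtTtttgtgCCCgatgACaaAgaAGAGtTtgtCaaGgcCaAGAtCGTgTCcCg
Myh1 differs from Myh4 at 4 of these 60 bases, Myh2 at 16, Myh8 at 19, Myh3 at 25 and Myh7 at 29. The window was chosen for all 6 genes at once, and the pair of 2X and 2B genes stays close in it, while the slow gene differs from Myh4 the most.

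The promoters of Myh4, Myh1, Myh2 and Myh8 also share sequence. They are shown for this shared sequence, and its part in how the genes varied across libraries was not tested. The stretches are those before the RefSeq start site on GRCm38.p6, 5′ to 3′ on the plus strand, chr11:67237562-67237811 for Myh4, chr11:67199852-67200051 for Myh1, chr11:67170777-67171026 for Myh2 and chr11:67276874-67277123 for Myh8. The one of Myh1 stops after 200 bases, where the GENCODE transcript begins, and the others run to 250. Capitals mark the longest run that all of the stretches share, TTCTAATTATATCC, and 4 shorter motifs on the strand shown, named after them.
Myh4: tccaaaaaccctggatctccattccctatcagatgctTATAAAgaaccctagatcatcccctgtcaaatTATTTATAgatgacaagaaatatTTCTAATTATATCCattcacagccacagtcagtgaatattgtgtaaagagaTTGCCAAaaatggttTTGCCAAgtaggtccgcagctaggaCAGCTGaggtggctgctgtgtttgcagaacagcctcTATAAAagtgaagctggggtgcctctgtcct
Myh1: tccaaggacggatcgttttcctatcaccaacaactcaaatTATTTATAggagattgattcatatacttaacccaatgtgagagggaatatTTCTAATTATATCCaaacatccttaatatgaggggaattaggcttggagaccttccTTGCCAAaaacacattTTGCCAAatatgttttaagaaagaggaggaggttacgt
Myh2: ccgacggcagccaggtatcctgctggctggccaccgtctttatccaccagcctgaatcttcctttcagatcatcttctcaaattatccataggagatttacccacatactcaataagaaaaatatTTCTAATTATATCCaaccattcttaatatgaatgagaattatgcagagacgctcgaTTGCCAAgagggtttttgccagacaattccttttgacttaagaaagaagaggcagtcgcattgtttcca
Myh8: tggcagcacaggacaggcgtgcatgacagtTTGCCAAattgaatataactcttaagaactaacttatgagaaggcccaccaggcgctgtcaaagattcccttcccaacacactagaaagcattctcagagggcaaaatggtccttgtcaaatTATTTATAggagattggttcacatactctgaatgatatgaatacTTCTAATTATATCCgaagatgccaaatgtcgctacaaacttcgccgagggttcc
The motifs other than the TATA box and the E box were read from these promoters themselves, and both strands were searched in the 250 bases before each of 32851 RefSeq starts. The shared run of 14 bases was present before 4 starts (0.0122%), those of Myh2, Myh1, Myh4 and Myh8, and was not found before Myh3 or Myh7. The motif TATTTATA was found before 1.56% of starts, those of Myh1, Myh4 and Myh8 among them. The motif TTGCCAA was found before 3.33%, and Myh1 and Myh4 each hold 2 copies. The TATA box sequence TATAAA was found before 12.4% of starts. A copy lies 31 bases before the start in Myh4, 32 in Myh1 (in the stretch not shown) and 29 in Myh3, and none was found in the 250 bases before Myh2 and Myh7. One form of the E box that myogenic factors bind, CAGCTG, was found before 13% of starts and, of the 6 genes, before Myh4. A match is a description of letters and was not tested as a binding site.

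Myh4, the 2B gene, was the most abundant member at 10 weeks. WT libraries held 43522 reads in 10AF, 94985 in 11AF and 196371 in 12AF. A537T libraries held 46048 in 16AF, 35208 in 17AF and 12094 in 18AF. KO libraries held 29 in 13AF, 19577 in 14AF and 0 in 15AF. Within KO, Myh4 was thus high in 14AF only, and the A537T and WT groups overlapped. At 30 weeks Myh4 was low in all groups, with 459, 2 and 109 reads in WT (1AF, 2AF and 3AF), 0, 872 and 109 in KO (4AF, 5AF and 6AF) and 3, 0 and 5 in A537T (7AF, 8AF and 9AF). The highest library at 30 weeks, 5AF, stayed below every WT and A537T library at 10 weeks.

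Myh1, the 2X gene, was the only member with more than 3 reads in all 18 libraries. It held 7709, 21133 and 35504 reads in WT at 10 weeks, 58, 6471 and 7 in KO (13AF, 14AF and 15AF), and 10459, 10166 and 6607 in A537T. Among A537T libraries it therefore varied much less than Myh4 did. At 30 weeks it held 931, 89 and 289 reads in WT, 66, 289 and 121 in KO, and 124, 134 and 51 in A537T. In WT and A537T the loss with age was smaller than that of Myh4. In KO a loss with age rested on 14AF alone, since 13AF and 15AF lay below every KO library of 30 weeks. At 30 weeks Myh1 held more reads than Myh4 in 8 of 9 libraries.

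Myh2, the 2A gene, held 4038, 8487 and 17473 reads in WT at 10 weeks, 40, 902 and 1 in KO, and 2415, 1757 and 405 in A537T. All 3 A537T libraries and all 3 KO libraries lay below the lowest WT library. By normalized counts, 6.34% of all genes tested did so in A537T and 14.3% in KO. At 30 weeks it held 83, 39 and 65 reads in WT, 12, 238 and 32 in KO, and 30, 33 and 26 in A537T. The A537T libraries again lay below WT, within a narrow range, as 9.4% of all genes tested did by normalized counts. In KO, 5AF put the group on both sides of WT.

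Myh7, the slow gene, held 1974, 3779 and 7231 reads in WT at 10 weeks, 2, 801 and 2 in KO, and 1069, 1006 and 2 in A537T. Library 18AF thus held almost no Myh7, although it had 12094 reads of Myh4. At 30 weeks the gene was at 0 to 5 reads in every library, which is 0.445 CPM (counts per 1000000 reads) at most. Slow fibre RNA was therefore at the limit of what these depths can show at 30 weeks, since a count of 0 allows up to 3 reads.

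Myh8, the perinatal gene, followed the others less closely. It held 10, 239 and 19 reads in WT at 10 weeks, 2, 69 and 1 in KO, and 52, 998 and 2189 in A537T. Its highest library was 18AF, the A537T library with the fewest reads of every adult gene. At 30 weeks WT held 181, 7 and 47 reads, KO 0, 7 and 0, and A537T 1, 0 and 12. Myh3, the embryonic gene, had at most 13 reads in any library, was at 0 in 8 of 18, and did not reach the minimum mean count for a test in any comparison.

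**Figure D1:**
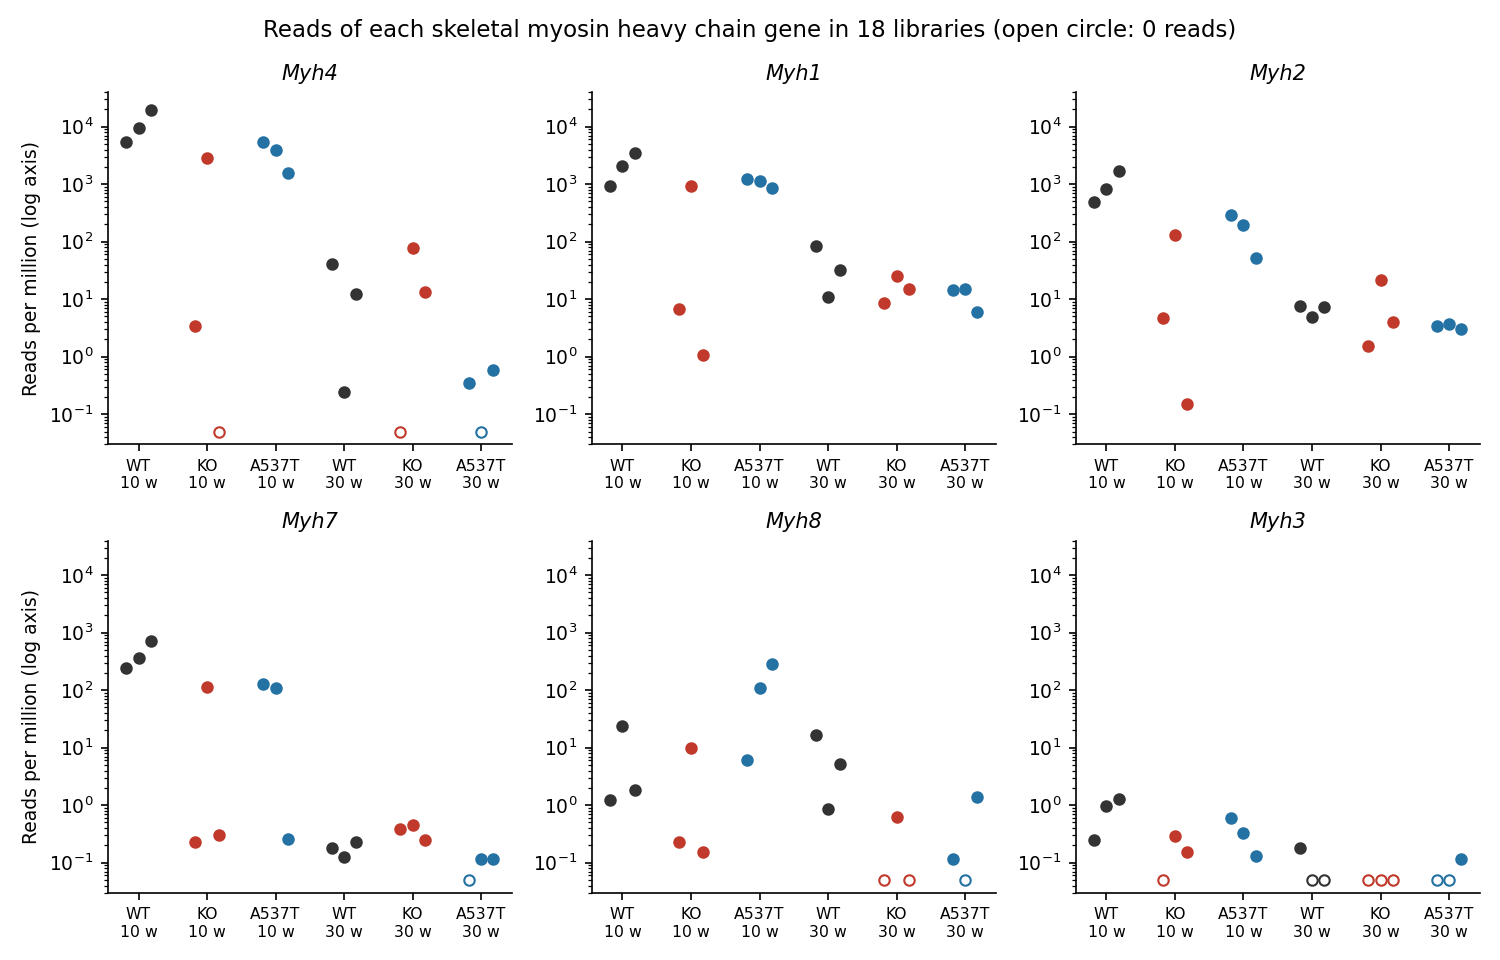
CPM (counts per 1000000 reads) of the 6 genes on a log axis in each library, by genotype and age in weeks, 1 point a library and 3 a group; open circles near the bottom edge stand for libraries with 0 reads. Myh4, Myh1, Myh2 and Myh7 were high in all WT libraries at 10 weeks and in only 1 of 3 KO libraries, and Myh8 was highest in 2 A537T libraries.

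The make-up of the adult heavy chains was then expressed within each library, as the share of each gene in the summed reads per kilobase of Myh4, Myh1, Myh2 and Myh7, which does not depend on how libraries were scaled. In WT at 10 weeks Myh4 made up 75.8 ± 1.34%, Myh1 14.5 ± 1.62%, Myh2 6.77 ± 0.220% and Myh7 2.97 ± 0.323% (SD, n = 3). The order was the same in all 3 libraries and no neighbours in it overlapped. The WT libraries held from 57243 to 256579 reads over these genes, yet Myh4 stayed within 74.2 to 76.8%. By this measure the muscle RNA of WT mice at 10 weeks was mixed, mostly of 2B type, with a small slow part.

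In A537T at 10 weeks the shares were 71.3 ± 6.96% for Myh4, 24.2 ± 8.97% for Myh1, 3.24 ± 1.00% for Myh2 and 1.25 ± 1.09% for Myh7 (SD, n = 3). Every A537T library held a smaller share of Myh2 (2.10 to 3.99%, against 6.56 to 7.00% in WT) and of Myh7 (0.0101 to 2.02%, against 2.73 to 3.34%), and a larger share of Myh1 (17.3 to 34.3%, against 13.4 to 16.3%). The shares of Myh2 and Myh1 were not tested between a mutant line and WT. The share of Myh7 differed by -1.72 percentage points, with an exact 2-sided permutation p of 0.1, the smallest that 3 against 3 can give, and 0.4 after adjustment over 8 tests. That of Myh4 differed by -4.47 points (exact permutation p = 0.4, adjusted 0.667), and by -0.59 without 18AF or -7.31 without 16AF. Library 18AF stood apart within the group, with 63.5% Myh4, 34.3% Myh1 and 2 of 19108 reads from Myh7 (0.0105% of reads, 95% Wilson interval 0.00287 to 0.0382%).

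In KO at 10 weeks the make-up could be read with precision in 14AF alone, whose 27751 reads gave 70.8% Myh4, 23.2% Myh1, 3.23% Myh2 and 2.80% Myh7. Its shares of Myh1 and Myh2 lay outside the WT range, as in A537T, and its share of Myh7 inside it. Library 13AF had 129 reads over the 4 genes, with 44.9% Myh1, 30.9% Myh2, 22.7% Myh4 and 1.51% Myh7, and the Wilson interval of its Myh4 share ran from 16.1 to 30.4%. Library 15AF had 10 reads, of which 7 were Myh1, and 0 reads of Myh4 allow a share of up to 30%. The difference in the Myh4 share between KO and WT was -44.6 percentage points (exact permutation p = 0.1, adjusted 0.4), and that in the Myh7 share was 5.0 points with p = 0.9. Without 15AF the Myh7 difference turned to -0.82 points and that of Myh4 went to -29.0, while without 14AF that of Myh4 was -64.4. With 14AF as the only KO library, which alone had at least 1000 reads, the Myh4 difference was -4.95 points.

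At 30 weeks Myh1 led in 8 of 9 libraries and Myh4 in 5AF. In WT, Myh1 made up 64.3 ± 3.20%, Myh4 18.8 ± 15.5%, Myh2 16.4 ± 12.3% and Myh7 0.432 ± 0.307% (SD, n = 3), and the ranges of Myh4 and Myh2 overlapped. In A537T, Myh1 made up 73.4 ± 10.4%, Myh2 23.3 ± 6.90%, Myh4 2.67 ± 3.11% and Myh7 0.586 ± 0.588%, and here Myh4 and Myh7 could not be ranked. In KO the shares were 49.2 ± 30.7% for Myh1, 34.6 ± 31.8% for Myh4, 14.6 ± 2.39% for Myh2 and 1.57 ± 1.79% for Myh7. The spread of Myh1 and Myh4 was the widest of the 3 groups and that of Myh2 the narrowest, and 4AF held no Myh4 among 81 reads and 5AF held 62.4% of Myh4 on 1404 reads. The 4 tests of Myh4 and Myh7 shares between a mutant line and WT at 30 weeks gave exact permutation p-values of 0.3 to 0.7.

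**Figure D2:**
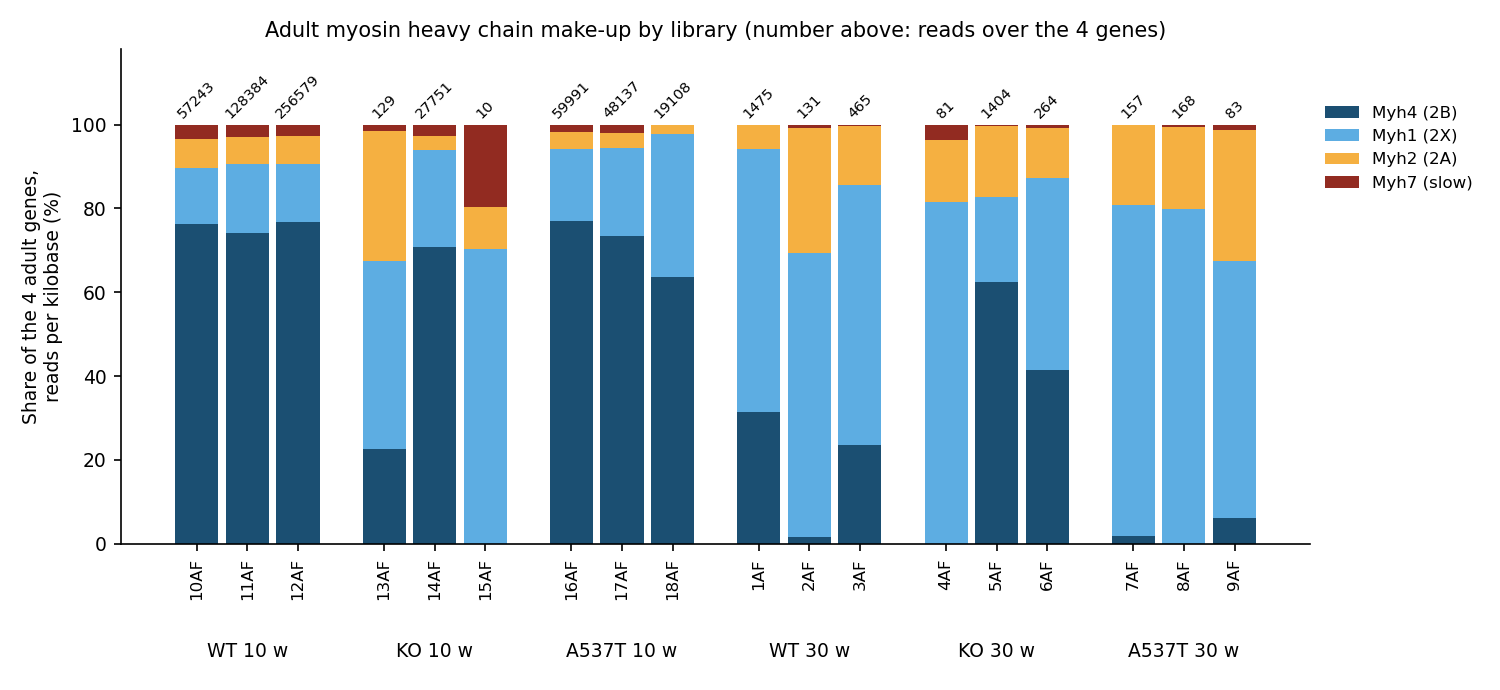
Stacked bars of the share (%) of Myh4, Myh1, Myh2 and Myh7 in their summed reads per kilobase, 1 bar a library, with the number of reads over the 4 genes above it. Myh4 fills most of the bar in 7 of 9 libraries at 10 weeks and Myh1 in most libraries at 30 weeks, where bars rest on 81 to 1475 reads.

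The make-up was then compared between the ages. With age permuted within genotype (8000 arrangements, exact, 2-sided, all 18 libraries), the share of Myh4 fell by 40.7 percentage points at 30 weeks (59.4 ± 28.1% against 18.7 ± 22.5%, SD, n = 9; p = 0.0095, adjusted over the 4 genes 0.019). That of Myh1 was 34.0 points higher (28.3 ± 18.9% against 62.3 ± 19.4%; exact p = 0.0075, adjusted 0.019). That of Myh2 was 9.87 points higher (8.25 ± 8.85% against 18.1 ± 8.19%; exact p = 0.0335, adjusted 0.0335), and that of Myh7 fell by 3.21 points (4.07 ± 5.91% against 0.861 ± 1.09%; exact p = 0.015, adjusted 0.02). For Myh4, Myh1 and Myh2 these differences came from WT and A537T. For Myh7 the group mean went from 7.97 to 1.57% in KO, from 2.97 to 0.432% in WT and from 1.25 to 0.586% in A537T. The KO mean at 10 weeks rested on 15AF, where 2 of 10 reads gave 19.6%. The KO libraries 13AF and 14AF had 1.51 and 2.80%, so KO cannot be ranked as the largest fall. The share of Myh4 went from 75.8 to 18.8% in WT and from 71.3 to 2.67% in A537T (group means, n = 3), with no overlap between the ages in either. In KO it was 31.2 ± 36.2% at 10 weeks and 34.6 ± 31.8% at 30 weeks, and the KO means of Myh1 (46.1 and 49.2%) and Myh2 (14.7 and 14.6%) were likewise close. Within KO at 10 weeks the SD was 10.1 points for Myh7 and 14.4 for Myh2, more than the differences by age of these genes. Whether the difference by age itself differed between the lines was not tested for the shares. The call for Myh2 was lost when 11AF, 14AF, 15AF, 16AF, 17AF, 18AF, 2AF, 4AF, 5AF or 9AF was left out (adjusted p 0.0512 to 0.11), and those for Myh4 and Myh1 were lost without 4AF (adjusted p = 0.054 for both, exact permutation). The call for Myh7 was lost without 15AF, 4AF, 5AF or 6AF, and its difference was -1.27 points rather than -3.21 without 15AF. With only the 15 libraries that had at least 100 reads over the 4 genes, Myh4, Myh1 and Myh7 stayed below the threshold, with adjusted p of 0.0156, 0.0117 and 0.01 (exact permutation), and Myh2 did not (0.169).

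The shift went together with the amount of muscle RNA, and age and amount were only partly separable. Libraries at 30 weeks had 81 to 1475 reads over the 4 genes, and at 10 weeks all but 13AF and 15AF had 19108 to 256579. Libraries 13AF and 15AF, both from mice of 10 weeks and both poor in muscle RNA, had Myh1 shares of 44.9 and 70.3%. Libraries 1AF and 5AF, both of 30 weeks, had nearly the same amount (1475 and 1404 reads), yet 62.9% Myh1 and 31.4% Myh4 in the WT library 1AF against 20.4% Myh1 and 62.4% Myh4 in the KO library 5AF. The part of the amount of muscle RNA in the difference by age was not tested.

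Reads of Myh1 and Myh2 were present where several other muscle genes were close to 0. The genes in this paragraph were chosen after their values were seen. Library 8AF held 134 reads of Myh1 and 33 of Myh2 beside 1 read of Atp2a1, the calcium pump of fast fibres, 1 of Ryr1, the calcium release channel of all skeletal fibres, and 1 of Tnni2, fast troponin I. Of the 10 fast list genes, 8 had at most 8 reads in 8AF, but Tnnc2 had 43 and Actn3 25, and Tnnc2 had at least 43 in every library. Myh1 had 64.1 to 95.3 reads for every 100 of Atp2a1 in WT libraries at 10 weeks, 70.2 to 184 in A537T, 568 in 1AF, 159 in 5AF and 13400 in 8AF. Library 4AF had 66 reads of Myh1 and 12 of Myh2 beside 1 of Atp2a1, and 2AF had 89 and 39 beside 4. Myh4 showed no such excess, since it was at 0 reads in 8AF and 4AF and at 2 in 2AF. Where these Myh1 and Myh2 reads came from was not tested, and they set the shares in the libraries with the fewest reads.

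**Figure D3:**
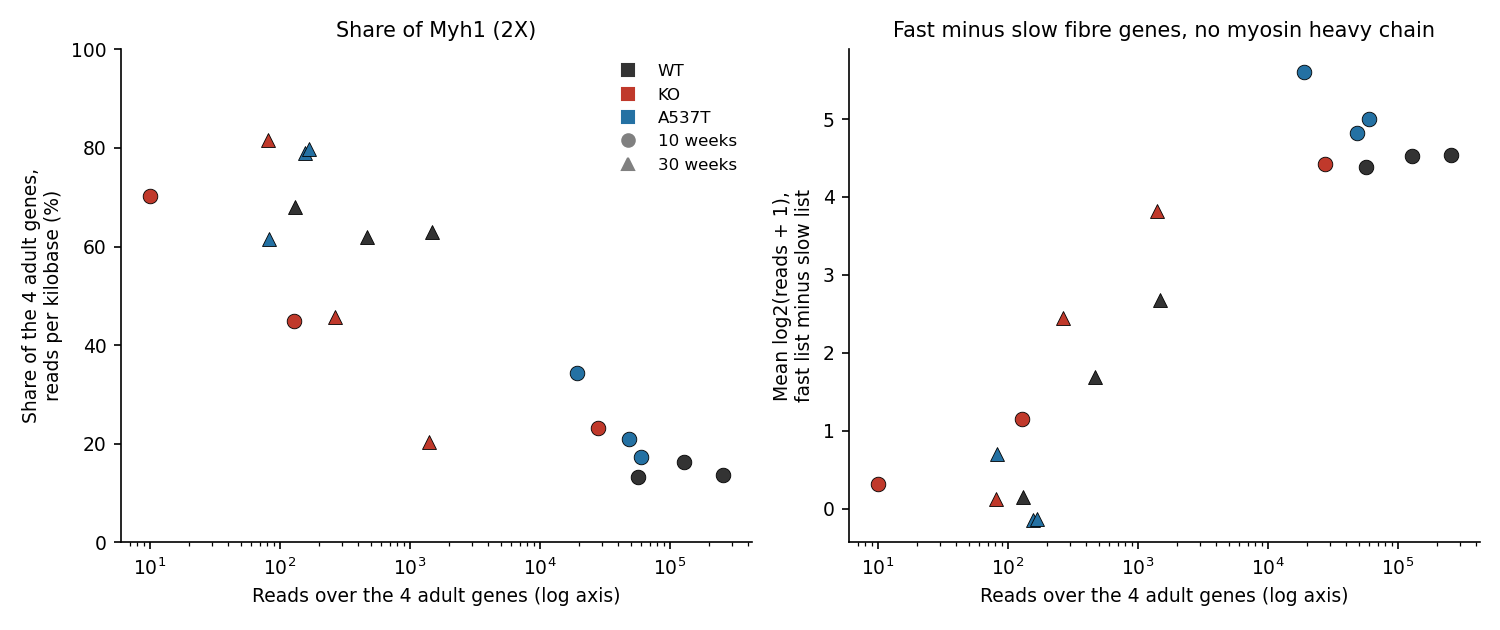
Left, the share of Myh1 (%) in the 4 adult genes, and right, the mean log2(reads + 1) of 10 fast fibre genes minus that of 8 slow fibre genes, both against the reads over the 4 adult genes (log axis), 1 point a library, with colours for genotype, circles for 10 weeks and triangles for 30 weeks. Libraries with the most reads have 13.4 to 34.3% Myh1, and the 30-week libraries 1AF and 5AF, with like amounts, lie far apart.

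Fibre type was also read from genes other than the heavy chains. The fast list holds the light chains Mylpf and Myl1, the fast troponins Tnnc2, Tnni2 and Tnnt3, Actn3, Atp2a1, Casq1, Pvalb and Mybpc2, and the slow list holds Myl2, Myl3, Tnnc1, Tnni1, Tnnt1, Casq2, Myoz2 and Mybpc1. The mean log2(reads + 1) of the fast list exceeded that of the slow list by 4.39, 4.53 and 4.53 in WT at 10 weeks, by 5.0, 4.82 and 5.61 in A537T, and by 4.43 in the KO library 14AF. It was 1.16 in 13AF and 0.32 in 15AF, and -0.14 to 3.82 at 30 weeks, where 5AF was again the highest. The difference by age was -2.60 on the log2 scale (3.86 ± 1.82 against 1.262 ± 1.456, SD, n = 9; exact permutation p = 0.01). Both lists held few reads at 30 weeks, where the slow mean was 2.23 to 3.08, and the difference shrinks as both lists near 0 reads. The test therefore cannot tell a change of fibre type from a loss of muscle reads. Of the slow list, Casq2, Mybpc1 and Tnnt1 kept reads in every library, with at least 34, 86 and 8.

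Of the slow list, the most abundant genes per kilobase were Mybpc1, Myl2 and Tnnt1. Myl2, the slow and cardiac regulatory light chain, held 278, 625 and 1199 reads in WT at 10 weeks, 0, 96 and 0 in KO, and 167, 120 and 0 in A537T, so that it was at 0 in the libraries 13AF, 15AF and 18AF, where Myh7 had 2 reads. Tnnc1, slow troponin C, was likewise at 0 reads and Tnni1, slow troponin I, at 1 read in 18AF. Tnnt1 kept 65 reads there and Mybpc1 745. Myl3, a slow and cardiac essential light chain, went the other way and held 223 reads in 18AF against 95 and 119 in 16AF and 17AF. Of the fast list, the most abundant were Tnnt3, Tnnc2 and Mylpf, and Tnnt3 held 2547 reads in 18AF against 8416 and 6614 in the other A537T libraries. Of genes used by all fibres, Acta1, skeletal alpha actin, kept 509 to 1133 reads at 30 weeks and 1370 in 15AF, where Myh4 was at 0. Acta1 has near-identical paralogs in smooth and cardiac muscle, so its low counts are uncertain. Ckm, muscle creatine kinase, kept 15 to 276 reads and Ttn, titin, 59 to 3376 at 30 weeks.

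Myh8 was accompanied by other genes of developing or cardiac muscle. In 18AF and 17AF, Actc1, the alpha actin of fetal and cardiac muscle, held 405 and 154 reads, against 0 to 39 in every other library. Myl4, the light chain of embryonic muscle, held 60 and 27 reads there and 0 to 12 elsewhere. Tnnt2, the troponin T of heart and of immature skeletal muscle, held 336 and 129 and otherwise 13 to 84. Of the myogenic factors, Myog had 6 and 10 reads there, its highest values, against 0 to 4 in the other libraries. Myod1 had 4 and 15 reads and Myf6 41 and 62, below the 22 and 122 of the WT library 11AF. Of the 6 heart genes listed, Nppa, Myl7 and Mybpc3 had at most 2 reads in any library, while Ryr2 (59 to 388 reads) and Tnni3 (6 to 45) were, like Tnnt2, present in all 18. The genes Chrng and Mymx, made in embryonic muscle and at fusion, had 0 in all 18. Smooth muscle genes were also high in 18AF, where the 6 genes of that list took 0.772% of reads against 0.0868 to 0.511% in the other libraries. Their part in the Myh8 reads was not tested. As a share of the reads of the 6 members, Myh8 was at 10.3% in 18AF, 10.9 and 9.18% in 1AF and 3AF (181 and 47 reads), 8.33% in 15AF (1 read), and highest in 9AF, where it was 12 of 96 reads.

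**Figure D4:**
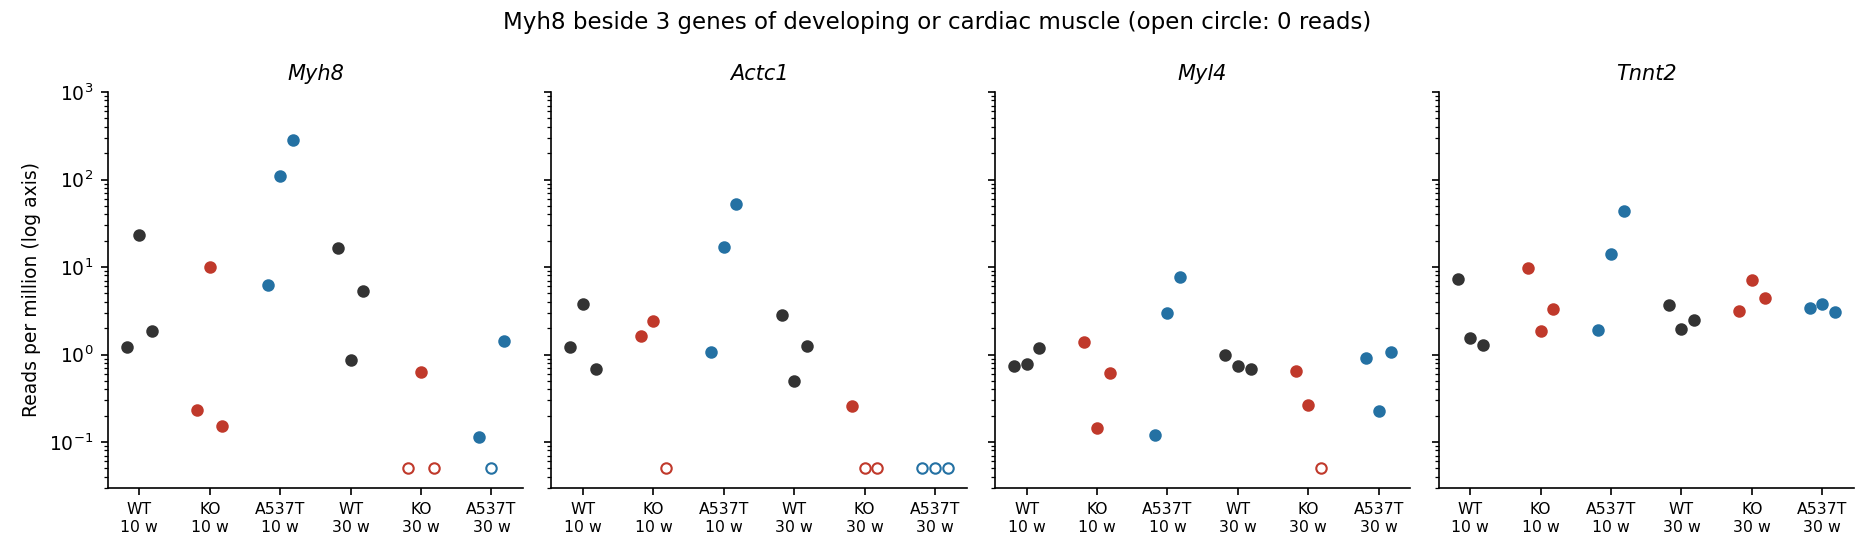
CPM (counts per 1000000 reads, log axis) of Myh8 and of Actc1, Myl4 and Tnnt2 in each library, by genotype and age, with open circles near the bottom edge for libraries with 0 reads. The same 2 A537T libraries at 10 weeks, 17AF and 18AF, are highest for all 4 genes.

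The mutant groups were compared with WT of their age on log2(normalized count + 1) with limma, over all genes whose normalized counts averaged 10 or more (15089, 15131, 14729 and 14789 genes for KO and A537T at 10 weeks and KO and A537T at 30 weeks). These fold changes depend on the added 1 where a group has libraries near 0. No gene, and thus no member, passed an adjusted p of 0.05 in any of the 4 (percent called 0). At an unadjusted p under 0.05 limma gave 2930, 973, 1616 and 2016 genes (19.4, 6.43, 11 and 13.6%). DESeq2 on the recovered reads called 715, 90, 285 and 472 genes (4.75, 0.608, 1.94 and 3.19%), none of them a member, and edgeR called 0 in each.

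In KO at 10 weeks all 4 adult genes were lower on average, with log2 fold changes of -10.03 (SE 3.29) for Myh4, -7.52 (SE 2.03) for Myh2, -7.45 (SE 2.15) for Myh7 and -6.80 (SE 2.28) for Myh1. The adjusted p-values (limma) were 0.195, 0.183, 0.183 and 0.199. Myh4, Myh2 and Myh7 lay below WT in every KO library, where 14.3% of all genes tested did so, and Myh1 overlapped. These sizes rest on the libraries near 0: edgeR on the recovered reads gave -3.78 for Myh4, -4.70 for Myh2, -3.70 for Myh7 and -2.98 for Myh1. Myh8 changed by -2.18 (SE 1.65), with an adjusted p of 0.468 and overlapping groups. Library 14AF decided these calls: without it, limma gave log2 fold changes of -14.07 for Myh4, -10.22 for Myh7, -9.83 for Myh2 and -9.62 for Myh1, with adjusted p-values of 0.00919, 0.0049, 0.0211 and 0.00785, and 185 genes (1.23%) passed in all. Of the fast list all 10 genes lay below WT in every KO library, with a median log2 fold change of -7.31, and of the slow list 7 of 8, with a median of -5.22, beside a median of -0.01 over all genes tested. No gene of either list passed the adjusted threshold. In the same comparison 7 of 8 seminal vesicle genes lay above WT in every KO library, as 11.7% of all genes tested did, and their part was not tested.

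In A537T at 10 weeks Myh2 was lower in all 3 libraries, with 1550 ± 1086 normalized counts against 9623 ± 7260 in WT (SD, n = 3) and a log2 fold change of -2.72 (SE 0.77, adjusted p = 0.746, limma). Myh7 changed by -4.58 (SE 2.15), also below WT in every library, a pattern that 6.34% of all genes tested had. Without 18AF the Myh7 value was -1.77, and with edgeR -2.57. Myh4 changed by -1.74 (SE 0.71) and Myh1 by -0.91 (SE 0.54), both overlapping WT, and Myh8 by 3.74 (SE 1.53), with 1071 ± 1082 normalized counts against 78.2 ± 109 and overlapping groups. Their adjusted p-values were 0.746 to 0.755 (limma). No fast list gene lay below WT in every library and 5 of 8 slow list genes did. The list medians were -1.66 for fast and -2.13 for slow, beside 0.01 over all genes tested.

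At 30 weeks differences rested on few reads. In KO, Myh8 was below WT in all 3 libraries (1.71 ± 2.97 against 66.7 ± 70.9 normalized counts, SD, n = 3; log2 fold change -4.44, SE 1.19, adjusted p = 0.392, limma), as 8.41% of all genes tested were. The KO library 5AF and the WT library 2AF both held 7 reads, so that their order rests on the scaling. Without 5AF it was called, at -5.32 with an adjusted p of 0.0415 (limma), among 944 genes (6.41%). Myh1, Myh2 and Myh4 overlapped WT, at -1.06 (SE 0.70), -0.31 (SE 0.80) and -0.23 (SE 2.62). In A537T, Myh2 was below WT in all 3 libraries, as 9.4% of all genes tested were, at 30.1 ± 1.67 against 62.9 ± 12.8 normalized counts (SD, n = 3; log2 fold change -1.02, SE 0.23, adjusted p = 0.236, limma). Myh4, Myh8 and Myh1 overlapped WT, at -4.11 (SE 1.69), -3.69 (SE 1.29) and -1.47 (SE 0.69), with adjusted p-values of 0.36, 0.313 and 0.397 (limma). Myh7 had too few reads to be tested at 30 weeks.

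**Figure D5:**
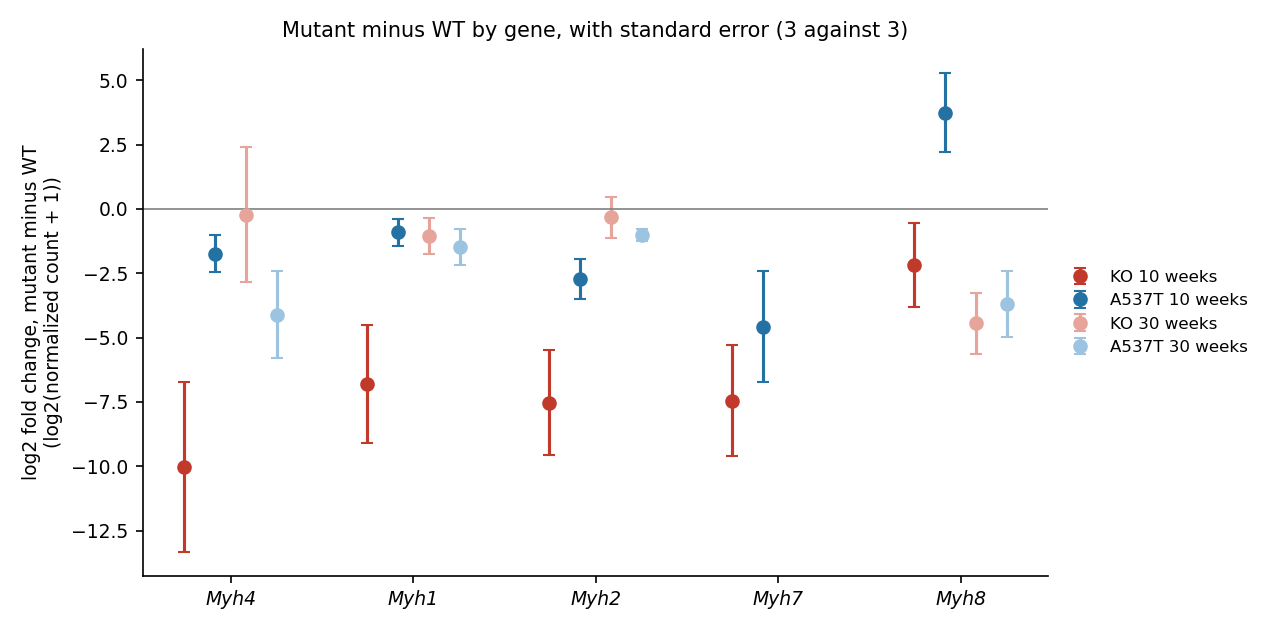
log2 fold change, mutant minus WT, of log2(normalized count + 1) for the 5 members that could be tested, with its standard error from limma, 3 libraries against 3; Myh7 could be tested only at 10 weeks. Most points lie below 0 and Myh8 in A537T at 10 weeks above it, and no point passed the adjusted threshold.

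Whether a line's difference from WT itself changed between the ages was tested by permuting labels within each age (400 arrangements, exact, 2-sided, 12 tests over 6 genes and 2 lines). The change was 8.16 on the log2 scale for Myh7 in KO (exact permutation p = 0.005, adjusted 0.06), where both groups were near 0 at 30 weeks, and -7.43 for Myh8 in A537T (exact permutation p = 0.025, adjusted 0.15), from 3.74 to -3.69. The other adjusted values were 0.4 to 0.675 (exact permutation).

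The genes whose pattern was most like that of a member were sought by Pearson's r of log2(CPM + 1) over the 18 libraries, among 15497 genes, for members with a mean of at least 10 normalized counts in every table. This r is a description, since all muscle genes share the amount of muscle RNA in a library. Myh4 was closest to Atp2a1, Tnni2 and Tnnt3, all with r of 0.996. Myh1 was closest to Ryr1 (0.980), to Xirp2 (0.980), which encodes an actin-binding protein of striated muscle, and to Myom2 (0.979), which encodes an M-band protein. Myh2 was closest to Aldoa (0.982), a glycolytic enzyme, to 3425401B19Rik (0.981) and to Stac3 (0.979), a partner of the muscle calcium channel. Myh8 was closest to Actc1 (0.944), then Lrtm1 (0.845) and Smr2 (0.841). Its r was 0.665 with Myh1, 0.626 with Myh4, 0.494 with Myh2 and 0.330 with Myh7. Among the adult genes r ran from 0.865 (Myh1 and Myh7) to 0.969 (Myh1 and Myh4).

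The other sarcomeric heavy chains added few reads. Myh6, the cardiac alpha chain, Myh7b, Myh13 of extraocular muscle, and Myh15 held at most 17, 31, 12 and 7 reads in any library. Reads of Myh6 are uncertain because it shares sequence with Myh7. Its 17 reads were in 15AF, where Myh7 had 2 and the 6 members together 12. Of the RNAs of the chromosome 11 cluster, Myhas, an antisense transcript that overlaps Myh1 and stops short of Myh4 (chr11:67211256-67237573), held 7, 12 and 49 reads in WT at 10 weeks and 0 to 9 elsewhere, and 2310065F04Rik held 34, 71 and 112 in the same libraries. The authors counted reads by strand, so reads of Myhas are told apart from those of Myh1, and 2310065F04Rik overlaps no member. The smooth muscle heavy chain Myh11, which is not made in skeletal fibres, held 3985 to 25248 reads and was tested with Myh9, Myh10 and Myh14: in KO at 10 weeks their log2 fold changes ran from -0.24 to 1.08, 2 lower and 2 higher, and each overlapped WT. In the other comparisons 1 gene did not overlap: Myh9 lay above WT in every A537T library at 10 weeks (log2 fold change 0.18) and below it in every A537T library at 30 weeks (-0.45), with adjusted p-values of 0.786 and 0.315 (limma). At 30 weeks 9.4% of all genes tested lay below WT in this way, and the share above WT at 10 weeks was not counted.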

How the data were processed

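RNA sequencing data of 18 prostate libraries (6 groups of 3) were analysed from 4 tables of 6 libraries, each holding a mutant group beside its age's WT group. The columns carry library names without genotype or replicate number: mutant columns were assigned to the line and age their table is for, and the 3 libraries found in both tables of an age as WT. The study describes the 3 samples of a group as biological replicates. Per its methods, the authors trimmed reads (Trim Galore 0.4.1, cutadapt 1.18), aligned them with STAR 2.7.3a to GRCm38.p6 with nuclear mitochondrial sequences masked, counted them by strand with Salmon and imported them into DESeq2. The deposited signal values are normalized counts, for which the authors divided each library's gene counts by its DESeq2 size factor. This rescaling and the sharing of reads between near-identical genes can both move the counts. The WT reads of a gene differ slightly between the tables (43522 and 42899 for Myh4 in 10AF), and those of the KO tables were used for shares. The authors' tables of shrunken fold changes and s-values were not used.

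Whole reads were recovered by dividing each column by the value of 1 read; 99.9857% or more of the values came out whole within 0.02. In 4 columns 1 read is worth nearly 1 unit, and an automatic test of the steps did not apply to them. Of 55469 gene IDs, 54450 matched the GENCODE vM21 symbols exactly and 55107 after versions were dropped. Members were tested with limma 3.58.1 (R 4.3.3; lmFit, eBayes with a mean trend, Benjamini-Hochberg over all genes tested) on log2(normalized count + 1), for genes with a mean of at least 10. edgeR 4.0.16 (quasi-likelihood) and DESeq2 1.42.0 on recovered reads were alternatives. Shares used the length of the longest coding transcript, and were tested by exact permutation. Intervals are 95% Wilson intervals and for a gene at 0 the upper limit was set at 3 reads; both cover counting error only. The steps were tested on simulated data.

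The members and gene lists were chosen with earlier results of these data known. Genes named are the 6 members, the 4 other sarcomeric heavy chains, the 3 most abundant genes per kilobase of the fast fibre, slow fibre, all-fibre and developing muscle lists, the 3 genes most like each member, and Elac2; other genes named were chosen after their values were seen. Alternatives were pseudocount 8, minimum means of 1 and 100, quantile normalization, scaling to the same total, limma with no mean trend, both count tools, leaving out each library, and, for shares, no length scaling, WT from the A537T tables, all 6 members as denominator and minimum read numbers. The libraries of the TRAMP lines were not analysed here. Coding sequences were aligned with MAFFT, and promoters are from RefSeq.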

Additional observations from a re-analysis of the deposited data

How the results depend on the processing

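No paired analysis was possible because the columns carry no replicate numbers. Numbers of genes past the adjusted threshold, 0 in each comparison by limma, were 715, 90, 285 and 472 with DESeq2 (KO and A537T at 10 weeks, then at 30 weeks), 1 and 2 without a mean trend and 2 with a minimum mean of 1 in A537T (10 weeks). With 1 library left out the KO count ranged from 0 to 2886 at 10 weeks and the A537T count from 0 to 50, highest without 10AF in both (185 without 14AF in KO), and from 0 to 944 (without 5AF) and 0 to 1224 (without 8AF) at 30 weeks. The cause was not tested. Scaling to the same total took the median log2 fold change of all genes at 10 weeks from -0.01 to 0.20 in KO. In A537T it went from 0.01 to 0.15.

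Members kept their direction under the alternatives run except Myh2 and Myh4 in KO at 30 weeks. Myh2 turned to 0.40 with edgeR and 0.38 with DESeq2, and ranged from -1.26 to 0.48 with 1 library left out. Myh4 turned to 0.21 with pseudocount 8, 0.69 with edgeR and 0.69 with DESeq2, and ranged from -2.21 to 2.49.

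With 1 library left out, the differences by age ranged from -45.9 to -34.1 percentage points for Myh4, 28.6 to 38.8 for Myh1, 7.65 to 12.6 for Myh2, -4.28 to -1.27 for Myh7, and -2.88 to -2.19 on the log2 scale for fast minus slow genes. With at least 100 reads Myh2 was at 7.72. With at least 1000 reads over the 4 genes, chosen after seeing the data, 9 libraries were left, of which none was A537T at 30 weeks. The A537T line therefore dropped out of the differences by age. What remained was 1AF against the WT libraries of 10 weeks and 5AF against 14AF, and with 8 arrangements no call was possible. The differences, over WT and KO only, were -26.4 for Myh4, 22.9 for Myh1, 6.22 for Myh2, -2.65 for Myh7 and -1.20 for fast minus slow. The Myh7 share in KO at 10 weeks turned to -0.82 with at least 100 reads and -0.18 with at least 1000, and ranged from -0.82 to 8.23 with 1 library left out. In A537T at 30 weeks it turned to -0.14 with at least 100 reads, and ranged from -0.14 to 0.45.

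Depth was 6569642 to 11225281 reads, so that counts of 0 to 5, as for Myh7 and most Myh3 and Myh4 values at 30 weeks, cannot rank libraries.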
